A study of Mus musculus with 3 samples.

Results

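The genes described here are the steroid hormone receptors Esr1, Pgr and Nr3c1, the receptor cofactors Foxa1 and Ncoa3, and the hormone-sensing or hormone target genes Greb1, Wnt4 and Cited1. These 8 genes were taken from a list of hormone receptors, cofactors and hormone-sensing cell genes and were found through the RefSeq symbols of the array's probes. They had 15 probes, and 7 of the 8 entered the test, which ran on 21743 genes and transcripts. The data are from primary cultures of tumor cells of MMTV-PyMT origin. In MMTV-PyMT mice the mouse mammary tumor virus promoter drives the polyoma middle T oncogene in the mammary epithelium. The paper's methods describe such acinar cultures as cells of RANK+/+ or RANK-/- tumor transplants, grown on Matrigel. For each of 3 tumors, called tumors 1, 2 and 3, a culture treated with RANK ligand (RL) for 24 h and an untreated culture were hybridized together on 1 two-color Agilent array. Every culture was grown in serum with cholera toxin, insulin and EGF, and the genotype, strain and age of the mice are not given in the labels. The deposited labels give the RL dose as 1000 µg/mL, which differs from the dose in the methods.

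Steroid receptors are transcription factors that bind a hormone, enter or stay in the nucleus, and recruit cofactors that open or close chromatin at their target genes. In the mammary gland the estrogen and progesterone receptors mark the hormone-sensing luminal cells, which answer progesterone by secreting paracrine factors, RL and Wnt4 among them, that act on neighboring cells. The glucocorticoid receptor is used far more widely and takes part in lactation.

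The RL sample carried Cy3 on the arrays of tumors 1 and 3 and Cy5 on that of tumor 2, so a dye effect does not cancel in the mean of the 3 arrays. The log2 ratios of RL over control of all genes correlated with r = 0.45 between tumors 1 and 3, which share the dye order. The correlation was -0.11 between tumors 1 and 2 and -0.11 between tumors 2 and 3, which have opposite orders (across 21721 genes, which are not independent replicates). How many of all genes were higher in the same dye on all 3 arrays was not counted, so that pattern in single genes below has no reference. Each tumor is also 1 array, so a difference in level between tumors and one between arrays cannot be told apart. All levels below are log2 intensities after normalization, which are compared only within 1 probe, except where markers are summed over a list, and all changes are log2 ratios of RL over control with the limma standard error (SE). The share of probes well above background was 55.2%, 56.2% and 55.8% in the control channels of tumors 1, 2 and 3 and 55.9%, 55.8% and 54.6% in the RL channels. The number of arrays limits the precision.

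None of the 7 tested genes passed an adjusted p of 0.05 in limma, and the levels of the control and RL cultures overlapped in each of them. Over all genes, 0.0046% were called higher and 0.023% lower, so calls were rare throughout. An unadjusted p under 0.05 in limma was reached by 0 of the 7 genes, beside 3.61% of all genes with a higher and 3.56% with a lower mean. With a dye term in the fit, 0.598% of all genes were called higher and 0.787% lower, and by rank product 0.166% and 0.235%. The dye term and the rank product each called 0 of the 7. The fit with the dye term leaves 1 residual degree of freedom, so its p-values lean on the variance pooled over genes. Wnt4 was higher and Greb1 lower with RL in all 3 tumors, while 14.2% of all genes were higher and 13.3% lower in all 3. The size of the mean change was 0.26 at most among the 7 genes, in Foxa1, beside a median size of 0.060 over all genes tested. Without tumor 2, which leaves 2 arrays of 1 dye order, 598 genes were called higher and 886 lower, Foxa1 among the former.

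**Figure D1:**
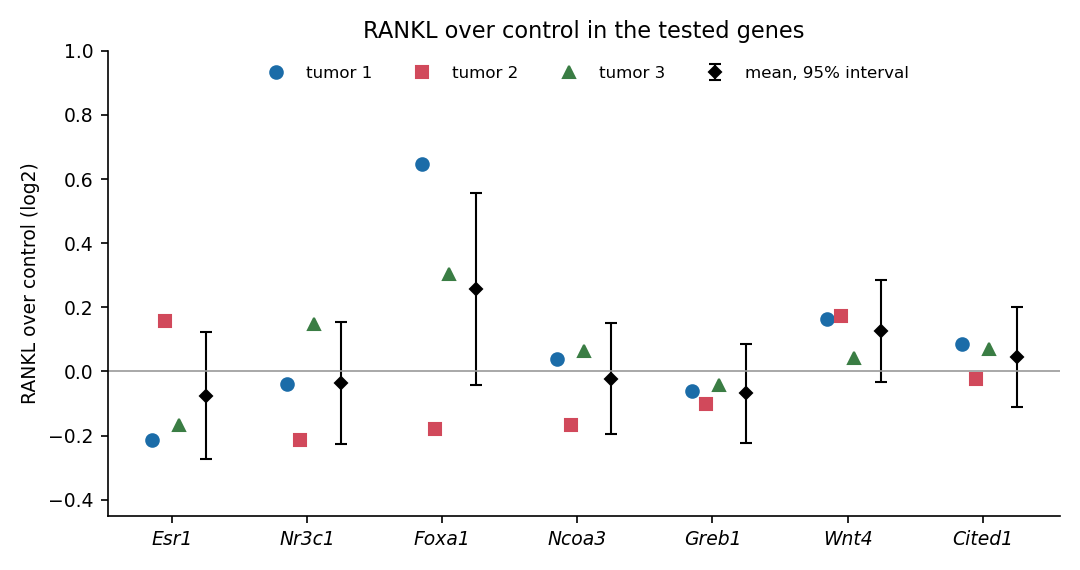
Log2 ratio of RL over control in each tumor for the 7 tested genes, with the mean over 3 tumors and its 95% interval from limma (black diamonds). Every interval includes 0, and the tumors lie farthest apart in Foxa1, from -0.18 to 0.65.

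Esr1 encodes estrogen receptor alpha. The level of its brightest probe in the control cultures was 6.81, 6.63 and 6.89 in tumors 1, 2 and 3, and in the RL cultures it was 6.59, 6.79 and 6.72. All 6 channels were well above background. Tumor 2 was the only tumor in which RL was the higher culture. The ratios of RL over control were -0.22, 0.16 and -0.17, with a mean of -0.076 (SE 0.087, adjusted p = 0.901). This probe was printed 10 times on each array, of which 9, 8 and 8 spots were kept. The SD over these spots was 0.11, 0.089 and 0.075, beside an SD of 0.20 between the tumors. Read as Cy5 over Cy3, the ratios were 0.22, 0.16 and 0.17, higher in the Cy5 channel on all 3 arrays, and with a dye term the RL value was -0.018 (adjusted p = 0.989). A second Esr1 probe, also above background in every channel, gave 0.14, -0.077 and 0.021, with the opposite sign to the brightest probe in each tumor. The third Esr1 probe was not well above background in any channel.

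**Figure D2:**
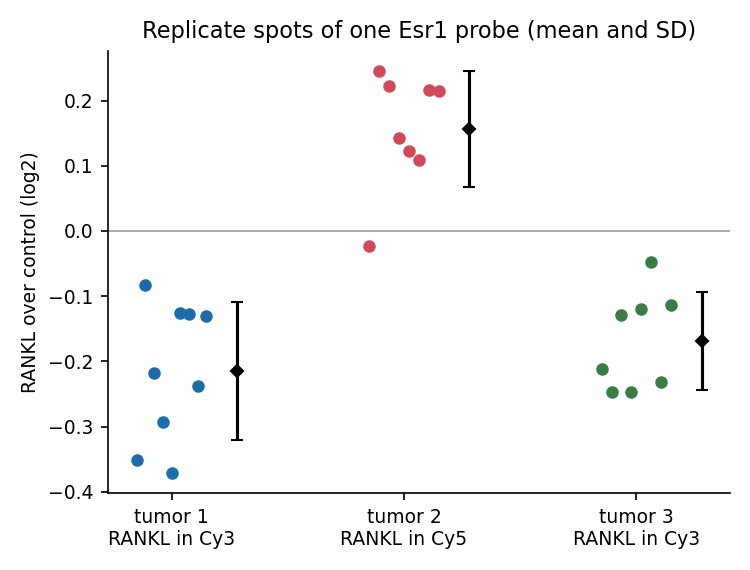
Log2 ratio of RL over control at the replicate spots of the brightest Esr1 probe, by tumor and by the dye that carried the RL sample, with the mean and SD over spots. The spots of tumors 1 and 3, with RL in Cy3, average -0.22 and -0.17, and those of tumor 2, with RL in Cy5, average 0.16.

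Pgr encodes the progesterone receptor, itself a target of the estrogen receptor. Neither of its 2 probes was well above background on all 3 arrays for either culture, so Pgr was not tested. One probe was above background in the control cultures of tumors 1 and 3, where control was in Cy5, and in no RL channel. Its level was 6.31, 5.92 and 6.24 in control and 6.10, 6.02 and 5.90 with RL. The other probe was above background in both cultures of tumor 1 alone. Its level was 6.33, 5.79 and 6.16 in control and 6.18, 5.96 and 6.21 with RL. Pgr is a defining marker of hormone-sensing luminal cells, and each of its probes was thus above background in 2 of 6 channels.

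Nr3c1 encodes the glucocorticoid receptor. Its brighter probe was at 11.62, 11.78 and 11.14 in the control cultures and at 11.58, 11.57 and 11.29 with RL. Tumor 3 was lowest in either condition. The ratios were -0.039, -0.22 and 0.15, and the mean of -0.035 was smaller than the spread between tumors (SE 0.084, adjusted p = 0.951). Without tumor 2 the mean had the other sign, at 0.055. The dimmer probe gave ratios of -0.17, 0.075 and 0.084 and was also lowest in tumor 3, with mean levels of both channels of 8.03, 7.90 and 7.80.

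Over the 6 channels, the genes with a RefSeq symbol whose levels followed Esr1 most closely, after each was centered on its mean, were Cptp, Lrrc57 and Mrgpra4. Their root mean square differences from Esr1 were 0.028, 0.028 and 0.029 on the log2 scale, beside a median of 0.19 over the 14033 genes compared. The Esr1 levels hold the difference between the dyes described above, so likeness to Esr1 includes likeness in that difference. For Nr3c1 the nearest genes were Nmnat3, Trps1 and Mdfi, with differences of 0.037, 0.044 and 0.044 beside a median of 0.27. For each receptor these are the smallest differences of all genes compared, so they lie below the median by the way they were picked. Likeness beyond this selection was not tested. Pgr was left out of this comparison because no probe of it was tested.

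Foxa1 is a pioneer factor that opens chromatin for the estrogen receptor. Its level in the control cultures was 8.26, 7.52 and 8.59, and with RL it was 8.90, 7.34 and 8.89. Tumor 2 was the lowest in both conditions. The ratios of RL over control were 0.65, -0.18 and 0.30, the widest spread among the 7 genes (SD 0.42), and 1.67% of all genes had an SD as large. The mean of 0.26 did not pass the test (SE 0.13, adjusted p = 0.751). Foxa1 was higher in the Cy3 channel on all 3 arrays, by Cy5 over Cy3 ratios of -0.65, -0.18 and -0.30. With a dye term the RL value was 0.15 (adjusted p = 0.572). Without tumor 2 the mean was 0.48 with an adjusted p of 0.000514 in limma. Both arrays left there carry RL in Cy3, so RL and dye cannot be told apart, and many other genes were called too, as given above. Without tumor 1 the mean of Foxa1 was 0.062.

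Ncoa3, a coactivator that joins the receptors to histone acetyltransferases, was at 11.09, 11.74 and 11.20 in the control cultures and at 11.13, 11.57 and 11.26 with RL. Tumor 2 was highest, and its 2 cultures lay above all 4 of the others. The ratios were 0.039, -0.17 and 0.063, with a mean of -0.022 (SE 0.076, adjusted p = 0.968). Without tumor 2 the mean was 0.051, of the other sign. As Cy5 over Cy3 the ratios were -0.039, -0.17 and -0.063, so Ncoa3 too was higher in the Cy3 channel on all 3 arrays. A second probe was also highest in tumor 2, with mean levels of both channels of 7.61, 7.81 and 7.61, and gave ratios of -0.048, -0.050 and 0.0062.

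Greb1 is a target of the estrogen receptor and binds it as a cofactor. Its level was 7.77, 7.53 and 8.24 in the control cultures and 7.71, 7.43 and 8.20 with RL. Tumor 3 was highest in both. The ratios of -0.062, -0.10 and -0.041 were the closest to each other among the 7 genes, and their mean was -0.068 (SE 0.068, adjusted p = 0.893). A second Greb1 probe did not keep this sign, with ratios of -0.10, -0.018 and 0.27. It was again highest in tumor 3, where its level of 7.81 in control and 8.08 with RL lay above all other cultures, from 6.68 to 6.97.

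Wnt4 is a secreted ligand that progesterone raises in hormone-sensing cells. Its brighter probe was at 6.96, 8.14 and 9.16 in the control cultures and at 7.13, 8.31 and 9.20 with RL. The cultures of each tumor lay apart from those of the next, with no overlap. RL over control was 0.16, 0.17 and 0.042, and the mean of 0.13 was not past the threshold (SE 0.070, adjusted p = 0.777). On a linear scale this was 1.09-fold. The dimmer probe had ratios of 0.18, 0.031 and -0.089, so the same sign in all 3 tumors held for 1 of the 2 probes.

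Cited1 encodes a transcriptional coregulator found in estrogen receptor positive luminal cells. It was at 9.04, 7.43 and 8.25 in the control cultures and at 9.13, 7.40 and 8.32 with RL. Tumor 1 was highest and tumor 2 lowest in both conditions. The ratios were 0.087, -0.023 and 0.070, and the mean was 0.045 (SE 0.069, adjusted p = 0.927). As Cy5 over Cy3 they were -0.087, -0.023 and -0.070, again higher in Cy3 on all 3 arrays. With each array centered on its median in place of loess, Cited1 was at -0.14 and the median of all genes at -0.11.

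**Figure D3:**
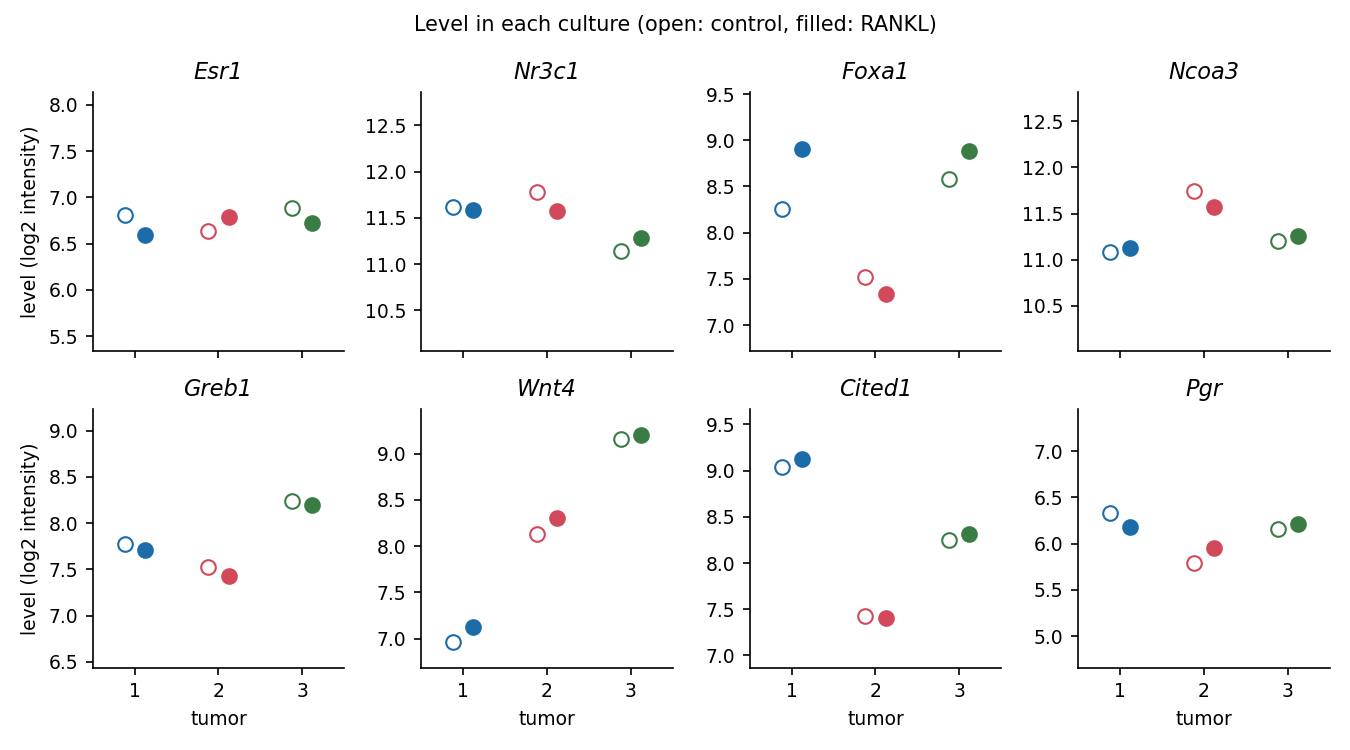
Level of each gene (log2 intensity) in the control culture (open) and the RL culture (filled) of each tumor, on axes of equal length. The Pgr panel shows the probe that was above background only in tumor 1. In Wnt4, Cited1 and Foxa1 the lowest and the highest tumor lie farther apart than the 2 cultures of any tumor.

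The level differed between tumors by more than the RL culture differed from its control in any tumor for 6 of the 7 genes, all but Esr1. The mean level of both channels, which holds each dye once on every array, spanned 2.13 between the lowest and the highest tumor for Wnt4, 1.67 for Cited1 and 1.31 for Foxa1, which are 4.39-fold, 3.18-fold and 2.48-fold. The median span over all 21743 genes was 0.27, and 1.46%, 2.66% and 4.36% of them had a span as large as Wnt4, Cited1 and Foxa1. The span was 0.74 for Greb1, 0.55 for Ncoa3 and 0.46 for Nr3c1. Esr1 spanned 0.10, and 86.4% of all genes had a span at least as large. This place depended on the processing: with processed signals Esr1 spanned 0.36 beside a median of 0.39 over all genes, and with offset 10 it spanned 0.17 beside 0.33. Without tumor 2 the span of Foxa1 was 0.16 beside 0.16 over all genes, and without tumor 1 that of Wnt4 was 0.96 beside 0.14. Cited1 also spanned less without tumor 1 or 2, and Greb1 without tumor 2 or 3, with the lowest values given at the end. The order of tumors was not shared: Wnt4 was highest in tumor 3, then 2, then 1, whereas Cited1 was highest in tumor 1, then 3, then 2. Foxa1 and Greb1 were highest in tumor 3 and lowest in tumor 2. For Wnt4 the dimmer probe gave the same order, with mean levels of 6.27, 6.76 and 7.40.

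**Figure D4:**
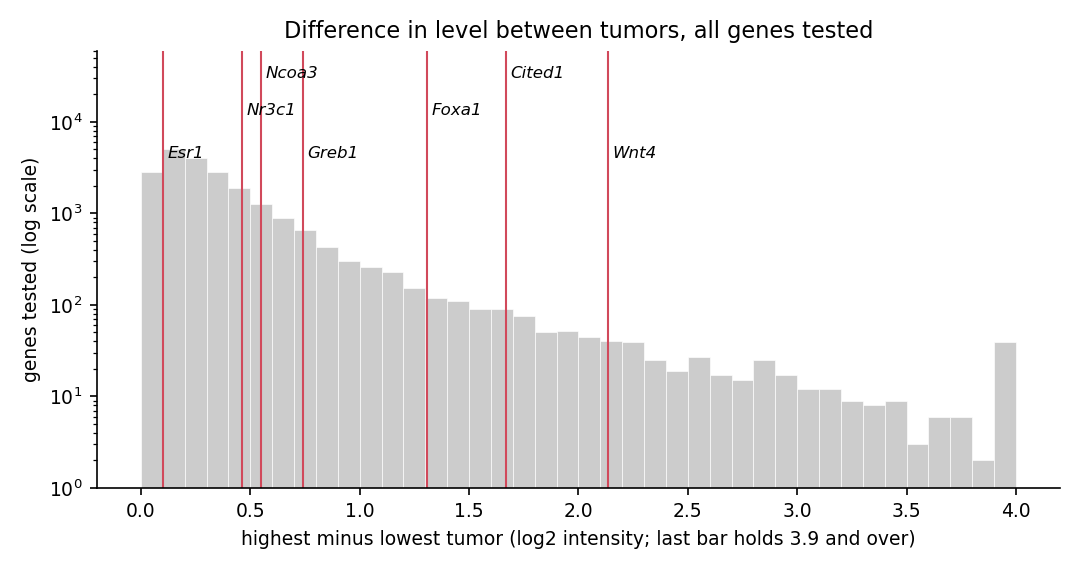
Highest minus lowest tumor in mean level (log2 intensity) for all 21743 genes tested, on a log count axis, with the 7 genes marked by lines. Wnt4, Cited1 and Foxa1 lie in the upper tail at 2.13, 1.67 and 1.31, and Esr1 lies at 0.10, or at 0.36 beside a median of 0.39 over all genes with processed signals.

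Markers of cell types also differed between the tumors. RNA from bulk cultures cannot tell fewer cells of a type from less RNA per cell. The summed control levels below are log2 values for tumors 1, 2 and 3, and each sum rests mostly on its brightest probes. Control was in Cy5 for tumors 1 and 3 and in Cy3 for tumor 2, so tumor and dye are mixed in these sums. With RL the sums put the tumors in the same order, except for leukocyte and endothelial markers. All 7 luminal epithelial markers were above background in every channel, with sums of 18.38, 17.80 and 18.62 and Krt18 brightest on average. With RL the sums lay closer together, at 18.12, 17.97 and 18.25. Krt18 was higher in Cy5 on all 3 arrays, by log2 ratios over Cy3 of 0.72, 0.42 and 0.70. By mean level of both channels, 4 of the 7 luminal markers were highest in tumor 1 and 3 in tumor 3. Basal and myoepithelial markers, 5 of 6 tested without Myh11, had sums of 15.05, 16.11 and 16.60, with Krt14 brightest. By mean level 3 of them were highest in tumor 2, 1 in tumor 3 (Krt14) and 1 in tumor 1 (Oxtr). Luminal progenitor and alveolar markers, 9 of 9, had 18.24, 15.74 and 16.09, with Ltf brightest. Of these 8 were highest in tumor 1. Fibroblast markers, 7 of 7, had 13.17, 12.09 and 14.14, with Col1a1 brightest on average. Of these 6 were highest in tumor 3. Leukocyte markers, 6 of 7 tested, had 12.73, 12.74 and 12.83, a sum that rested mostly on 1 Itgam probe, at 12.21, 12.40 and 12.44. Other Itgam probes were far dimmer, at 6.39, 6.32 and 6.19 and at 6.70, 6.42 and 6.67 in control. By mean level 2 of the 6 leukocyte markers were highest in each tumor. Endothelial markers, 2 of 4, had 11.03, 11.05 and 10.84, a sum that rested on 1 Kdr probe. The other Kdr probe was highest in tumor 3, at 6.59, 6.29 and 7.19 in control, and the untested Cdh5 and Emcn were above background in tumor 3 alone. Adipocyte markers rested on Fabp4 alone, at 7.44, 9.41 and 8.48, with Adipoq, Lep and Plin1 below background in every channel. The part of these cell types in the differences between tumors was not tested.

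Of 111 other genes of the hormone pathways, 93 were tested and 0 passed the adjusted p of 0.05 in limma. An unadjusted p under 0.05 was reached by 4 with a higher and 9 with a lower mean, beside 3.61% and 3.56% of all genes. With the dye term 2 were higher and 2 lower, beside 0.598% and 0.787% of all genes, and by rank product 0 and 1, beside 0.166% and 0.235%. Some genes, Areg and Xbp1 among them, stand in more than 1 of the lists below. The genes named next were picked on their values, from those with the largest mean change and 1 sign in all 3 tumors.

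Among other nuclear receptors, 25 of 29 were tested, 1 was higher and 7 were lower in all 3 tumors (14.2% and 13.3% of all genes), and the median change was -0.033 beside -0.00069 over all genes. Among those lower in all 3, Esrrg had a mean of -0.26 and the vitamin D receptor gene Vdr of -0.21. Vdr was at -0.29, -0.14 and -0.20 in tumors 1, 2 and 3. The gene that was higher in all 3 was Nr2f1 (0.11). Coregulators of steroid receptors, all 20 tested, had a median of 0.0040. Prmt1, Ncoa6 and Ncoa7 were higher in all 3 tumors with means of 0.10, 0.089 and 0.087. Receptor chaperones and immunophilins, all 11 tested, had a median of -0.0013. Hsp90aa1, Ppid and Fkbp5 were higher in all 3 tumors with means of 0.13, 0.12 and 0.091. Other probes of Ppid, Prmt1, Ncoa7 and Esrrg that passed the filter on dim probes had mixed signs.

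**Figure D5:**
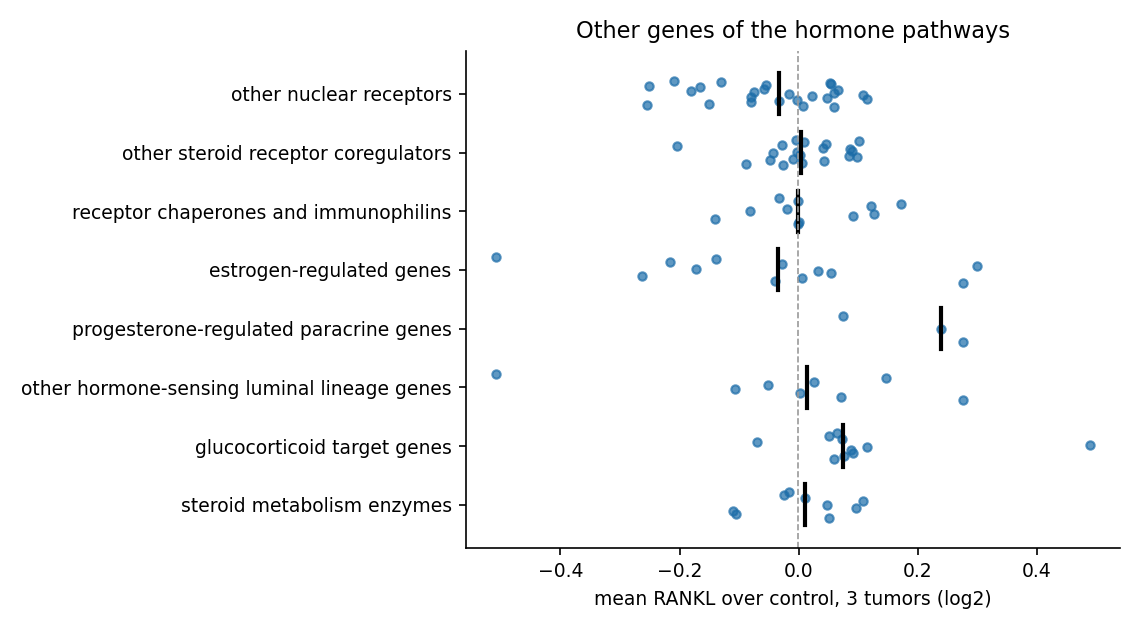
Mean log2 ratio of RL over control over 3 tumors for each tested gene of 8 lists of hormone pathway genes (points), with the median of each list (black bar) and of all genes (dashed line). Xbp1 at -0.51 and Mt2 at 0.49 are the outermost genes.

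Of 17 estrogen-regulated genes 12 were tested, with 2 higher and 4 lower in all 3 tumors (14.2% and 13.3% of all genes) and a median of -0.034. Xbp1, a transcription factor of the secretory pathway, was at -0.95, -0.43 and -0.15, with a mean of -0.51 (SE 0.13, adjusted p = 0.379). It passed with the dye term (adjusted p = 0.00257, 1 residual degree of freedom) and by rank product, with a proportion of false positives of 0.0247. The lysosomal protease gene Ctsd had a mean of -0.26 and Rerg of -0.22. A second Ctsd probe gave -0.15, -0.23 and 0.044, with a mean of -0.11. Myb, at 0.36, 0.24 and 0.30, had a mean of 0.30 (adjusted p = 0.321). With the dye term Myb and Ctsd passed as well, at adjusted p of 0.0381 and 0.0453.

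Among progesterone-regulated paracrine genes 3 of 4 were tested, with a median of 0.24. The EGF receptor ligand gene Areg was at 0.36, 0.23 and 0.23, and Rspo1, which strengthens Wnt signals, at 0.25, 0.21 and 0.25. Their means were 0.28 and 0.24, with adjusted p of 0.381 and 0.454. Rspo1 levels also differed between tumors, with mean levels of 6.74, 8.91 and 7.10. Tnfsf11, the gene of RL itself and singled out here after its values were seen, was likewise highest in tumor 2, with levels of 6.16, 8.80 and 6.35. Its ratios were 0.049, -0.035 and 0.21, of which that of tumor 1 is against a control channel that was not above background. In the other hormone-sensing luminal lineage genes, all 8 tested, the median was 0.014. Of these Areg and Tbx3 were higher and Xbp1 was lower in all 3 tumors (14.2% and 13.3% of all genes), and the mean of Tbx3 was 0.15.

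Glucocorticoid target genes, all 10 tested, had a median of 0.075, with 4 higher and 0 lower in all 3 tumors (14.2% and 13.3% of all genes). With median centering in place of loess this median was -0.076, beside -0.11 over all genes. The metallothionein gene Mt2 was at 0.76, 0.51 and 0.19, with a mean of 0.49 (SE 0.10, adjusted p = 0.251), and passed with the dye term (adjusted p = 0.000513). Zfp36 had a mean of 0.064. Of 17 genes of steroid metabolism enzymes 9 were tested, with a median of 0.011. Hsd17b4 was higher in all 3 tumors with a mean of 0.047, and Hsd17b11, Hsd11b1 and Srd5a3 were lower with means of -0.11, -0.11 and -0.025.

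Among the marker lists, the milk protein genes Lalba and Wap were past the threshold in limma, at 0.353-fold (adjusted p = 0.00758) and 0.499-fold (adjusted p = 0.0357) of control on a linear scale, each lower in all 3 tumors. Both were also past the threshold with the dye term, at log2 changes of -1.60 for Lalba and -1.05 for Wap, and by rank product. A second Wap probe was lower in all 3 tumors as well, at -1.26, -0.90 and -0.70. Neither call held when cultures were not paired, when arrays were centered on their medians or when the scanner's processed signals were used. That of Wap was lost also without a filter on dim probes. Csn2 had a mean log2 change of -0.47 (adjusted p = 0.161) and passed with the dye term (adjusted p = 0.000579) and by rank product (proportion of false positives 0.0206). Their list of luminal progenitor and alveolar markers had a median of -0.22. Of its 9 genes 6 were lower and 0 higher in all 3 tumors, beside 13.3% and 14.2% of all genes. The median change was -0.021 for luminal epithelial markers (0.055 without tumor 2), -0.12 for basal and myoepithelial, -0.058 for fibroblast, -0.013 for leukocyte, -0.0040 for endothelial and 0.16 for adipocyte markers. Trp63 had a mean of 0.044, Pdgfra of -0.19 and Cd68 of -0.22, each with 1 sign in all 3 tumors. They were the only such genes of 5 basal, 7 fibroblast and 6 leukocyte markers. Of all genes 14.2% were higher and 13.3% lower in all 3. Trp63 was also the only basal marker with a mean above 0, and 3 leukocyte markers had one. The other Trp63 probe gave -0.058, 0.11 and -0.18.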

How the data were processed

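The authors deposited spot intensities (medians, with local background) read by Agilent Feature Extraction 10.7.3.1, processed intensities and log10 ratios of Cy5 over Cy3 from the same software, its other spot flags, and a table of normalized log2 ratios of Cy5 over Cy3, whose direction was found against the scanner values (r of -0.881, 0.874 and -0.880 with RL over control at spots). In R 4.3.3 with limma 3.58.1, median (not mean) intensities were corrected by normexp (offset 50), normalized by intensity loess, spatial loess (span 0.1) and Aquantile, with 204, 195 and 223 outlier spots left out. Accessions of 28026 of 55681 probes matched RefSeq symbols (GRCm38.p6). Each gene was read from its brightest probe, of those marked well above background on all 3 arrays for RL or for control. Ratios within arrays pair cultures by tumor, as labeled. The fit was lmFit and eBayes with Benjamini-Hochberg adjustment, threshold 0.05. The programs were tested on simulated data, whose spread was chosen after another had left many or all changed genes uncalled, and with an added dye effect limma still left most uncalled. Named genes were the 8 genes, and in each list those past the threshold and the 3 largest mean rises and falls of 1 sign in all tumors, and the 3 genes nearest each receptor. Some genes that this rule names are not reported here. Members and lists were chosen with earlier results of these data known. Alternatives were a dye term, rank product (1000 permutations), an intensity trend, offset 10, no background correction, processed signals, no spatial loess, median centering, no Aquantile, other filters, outlier spots kept, mean over probes, the authors' ratios, no pairing, and each tumor left out.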

Additional observations from a re-analysis of the deposited data

How the results depend on the processing

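No gene of the 7 passed the threshold under 17 of 18 alternatives. The exception was Foxa1 without tumor 2, where RL and dye cannot be told apart, and 0 to 1 genes passed with each tumor left out. Of these alternatives 6 change the test, the filter or the level and leave the 7 ratios as they were. In the other 12 Esr1 and Greb1 stayed below 0 and Wnt4 and Foxa1 above 0, from -0.19 to -0.0061, -0.18 to -0.0095, 0.055 to 0.19 and 0.062 to 0.48. With each tumor left out Nr3c1 lay between -0.13 and 0.055, Ncoa3 between -0.065 and 0.051 and Foxa1 between 0.062 and 0.48. Median centering turned Cited1 to -0.14, and there the median of all genes moved to -0.11. Genes called higher and lower, 1 and 5, were 130 and 171 with the dye term, 36 and 51 by rank product, 11 and 23 with an intensity trend, 6 and 11 with offset 10 and 6 and 12 with no background correction. They were 0 and 0 with processed signals, with median centering and with no replicate block (cultures not paired by tumor), and 0 and 3 with no filter. The stricter filter gave 0 higher and the authors' ratios 2. With each tumor left out they ranged from 0 to 598 and from 2 to 886. Under median centering the list medians were -0.14 for the tested genes, -0.16 for the receptors, -0.14 for the hormone-sensing genes, -0.14 for other nuclear receptors, -0.15 for coregulators, -0.17 for chaperones, -0.20 for estrogen-regulated, -0.16 for luminal lineage, -0.076 for glucocorticoid target and -0.12 for enzyme genes, and -0.39, -0.22, -0.16 and -0.12 for alveolar, basal, leukocyte and endothelial markers. With no filter they were -0.0025 for other nuclear receptors, 0.0016 for estrogen-regulated genes and -0.047 for endothelial markers. With processed signals they were 0.12 for the hormone-sensing and -0.067 for estrogen-regulated genes. For progesterone-regulated genes they were 0.28 with offset 10, 0.26 with no background correction, 0.43 with processed signals, 0.26 with no spatial loess, 0.28 with the authors' ratios and 0.16 with no filter. For glucocorticoid target genes they were 0.063 with the dye term, 0.091 with offset 10, 0.090 with no background correction and 0.090 with processed signals. With each tumor left out they lay between -0.11 and 0.055 for luminal epithelial markers (-0.18 with median centering), -0.0046 and 0.044 for coregulators, 0.018 and 0.076 for chaperones, -0.066 and -0.037 for estrogen-regulated genes, -0.21 and 0.012 for basal and -0.062 and 0.030 for leukocyte markers. By alternatives chosen after seeing the data, the Esr1 span between tumors was 0.17 with offset 10 and 0.36 with processed signals. With each tumor left out the span was 0.010 to 0.10 for Esr1, 0.076 to 0.46 for Nr3c1, 0.16 to 1.31 for Foxa1, 0.12 to 0.55 for Ncoa3, 0.26 to 0.74 for Greb1, 0.96 to 2.13 for Wnt4 and 0.80 to 1.67 for Cited1. Also recomputed after seeing the data, Lalba and Wap stayed lower throughout, and adjusted p of both was 0.376 with processed signals and 1.00 with median centering and with no replicate block, and that of Wap 0.142 with no filter. The cause was not tested for any of these shifts, and dim probes such as those of Pgr and Esr1 are limited by signal over background.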
